A study of Mus musculus with 4 samples.

Results

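Matrix metalloproteinases (MMPs), the related ADAM proteases and their inhibitors were followed in myeloid-derived suppressor cells (MDSCs) grown from mouse bone marrow. The 10 genes were chosen by symbol: Mmp8, Mmp9, Mmp12, Mmp14, Mmp19, Mmp25, Adam8, Adam19, Timp1 and Timp2. All 10 of 32285 listed genes were found, and all 10 passed the minimum of 50 unique molecular identifiers (UMIs, counted transcripts) over the series. Marrow of young adult mice on the C57BL/6 background was cultured for 4 days in GM-CSF plus IL-6, both at 40 ng/mL, and live CD11b+ cells were sorted before capture. The wild-type (WT) cultures gave 2 libraries, WT + PBS and WT + ISO, where ISO is isoproterenol, a synthetic catecholamine (10 µM, from the first day of culture and renewed daily). The other 2 libraries entered only the clustering and the levels summed over all 4. The titles name ISO for the WT + ISO library and no treatment for the other WT library, which the study calls PBS. The treatment field of the labels instead names ISO for every library, and the titles were followed. The study's methods name male and female mice, whereas its reporting summary names female mice only. Xist stood at 359 to 389 CPM (counts per 1e+06 UMIs) in the 4 libraries, with at most 7 UMIs of any of 4 Y-linked genes in a library. The number of mice and of cultures behind each library is not given.

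Each group was 1 library, titled replicate 1, so no test between groups could be made. Every interval below is a 95% interval (exact for shares and for ratios of 2 libraries) that covers counting error alone, not the difference between cultures or animals. A gene was called when its ratio passed 1.5-fold in either direction. After filtering, 9303 of 9525 barcodes were kept, 2039 to 2790 per library, with 19357824 to 29400468 UMIs per library and medians of 7484 to 10252 UMIs per cell. No cell barcode was shared between libraries. By the study's methods, cell suspensions were pooled before capture, and a different multiplexing tag led in each library. Whether the libraries come from the same capture is not stated. Levels are CPM. UMIs count molecules, and no length correction was made. Whether introns were counted is not given, so levels of different genes are set side by side only as descriptions. Markers of fibroblasts or stroma, which make many MMPs in tissues, summed to at most 0.656 CPM in any library, and 2 of the 5 (Col1a2 and Dcn) were at 0 in all 4.

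MMPs are zinc-dependent proteases that cut collagens, elastin and other matrix proteins, and they are made as inactive precursors. Neutrophils load some of them into granules while they mature, whereas macrophages secrete others or hold them on the cell surface. ADAMs are membrane proteases that release the outer parts of surface proteins, and TIMPs are small secreted proteins that block MMPs and some ADAMs. Among the 10 genes, Mmp8 encodes neutrophil collagenase, Mmp9 gelatinase B and Mmp12 macrophage elastase. Mmp14 and Mmp25 encode membrane-bound MMPs, and Mmp19 a secreted one.

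The members lie on 8 chromosomes of GRCm38.p6 (mm10), the build of the submitters' notes. Mmp12 (ENSMUSG00000049723, chr9:7344397-7360461) and Mmp8 (ENSMUSG00000005800, chr9:7558429-7568486) stand 198 kb apart in a row of 10 MMP genes that spans 427 kb. The other positions are chr2:164940326-164955850 for Mmp9, chr14:54431598-54442456 for Mmp14 (ENSMUSG00000000957), chr10:128790910-128800827 for Mmp19 and chr17:23628315-23645269 for Mmp25. Adam8 lies at chr7:139978932-139995207, Adam19 at chr11:46054502-46147347, Timp1 (ENSMUSG00000001131) at chrX:20870166-20874737 and Timp2 at chr11:118301061-118355411. The spans of 7 members overlap another annotated gene, for Timp1 that of Syn1. Of the 9 genes of the chromosome 9 row that the files list, 4 had at least 50 UMIs. Mmp8 stood at 566 CPM and Mmp12 at 284 CPM over all cells, against 1.61 CPM for Mmp27 and 1.01 CPM for Mmp13. The remaining 5 listed genes of the row had 0 to 3 UMIs each. High levels in this row were therefore those of Mmp8 and Mmp12, the pair whose ISO ratios in WT pointed in opposite directions.

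The 250 bases before the annotated start are shown for the 4 members on which the ISO ratios turn, to give their proximal promoters beside the values (RefSeq, GRCm38.p6, 5′ to 3′ on the gene's strand, for Mmp12 before the outermost of 2 starts). Capitals mark matches on either strand to AP-1 (TGANTCA), the cAMP response element CRE (TGACGTCA), C/EBP (TTNNGNAA) or PU.1 (GAGGAA). No capitals overlap between motifs.
Mmp8 (chr9:7558179-7558428, plus strand): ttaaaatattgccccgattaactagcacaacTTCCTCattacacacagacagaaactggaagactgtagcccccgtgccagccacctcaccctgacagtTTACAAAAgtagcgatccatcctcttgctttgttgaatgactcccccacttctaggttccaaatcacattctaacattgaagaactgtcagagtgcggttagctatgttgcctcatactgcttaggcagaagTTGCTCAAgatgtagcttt
Mmp12 (chr9:7344147-7344396, plus strand): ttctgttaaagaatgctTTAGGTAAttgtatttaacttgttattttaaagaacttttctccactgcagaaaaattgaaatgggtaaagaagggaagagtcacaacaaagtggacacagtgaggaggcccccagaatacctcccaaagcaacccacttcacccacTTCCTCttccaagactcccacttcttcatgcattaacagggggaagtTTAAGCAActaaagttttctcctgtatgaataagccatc
Mmp14 (chr14:54431348-54431597, plus strand): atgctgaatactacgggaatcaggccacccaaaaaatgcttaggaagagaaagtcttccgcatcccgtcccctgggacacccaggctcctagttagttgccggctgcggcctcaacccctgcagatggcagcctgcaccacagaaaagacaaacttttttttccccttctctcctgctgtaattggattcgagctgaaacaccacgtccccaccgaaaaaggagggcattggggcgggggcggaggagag
Timp1 (chrX:20869916-20870165, plus strand): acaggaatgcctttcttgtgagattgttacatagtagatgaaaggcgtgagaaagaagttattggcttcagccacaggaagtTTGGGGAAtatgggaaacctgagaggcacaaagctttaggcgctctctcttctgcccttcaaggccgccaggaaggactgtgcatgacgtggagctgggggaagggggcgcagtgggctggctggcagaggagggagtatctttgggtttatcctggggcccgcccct
The Mmp8 window held 2 C/EBP matches, 151 and 19 bases before the start, and 1 PU.1 match at 219. In the Mmp12 window, C/EBP matches stood at 233 and 39 and a PU.1 match at 86, and that of Timp1 held a C/EBP match at 168. None of the 4 motifs was found in the Mmp14 window. Over the 8 members with an entry, 4 held a C/EBP match and 4 a PU.1 match, and 0 held an AP-1 or a CRE match. In all 32851 windows of this length, the shares were 36.8% for C/EBP, 23.3% for PU.1, 6.75% for AP-1 and 1.55% for CRE. A match is a match of letters, and the absence of one covers this window alone.

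To see which cells carried these transcripts, the cells were clustered without the members and without the other MMP, ADAM, ADAMTS and inhibitor genes of the related lists given below. Of 9 clusters, 6 were named from marker genes. They were azurophil-granule neutrophil progenitor-like (cluster 4, led by Mpo), specific-granule neutrophil-like (cluster 2, led by Ncam1, Camp and Ngp, and cluster 1, led by Ltf), mature neutrophil-like (cluster 7, led by Retnlg), macrophage-like (cluster 6, led by Mrc1 and C1qb) and migratory dendritic cell-like (cluster 8, led by Ccl5 and Ccr7). Clusters 0, 3 and 5 met no naming rule. The cells labelled MDSC thus held neutrophil-like, macrophage-like and dendritic cell-like transcriptomes. Cluster 0 (1757 cells, led by Gpnmb) was shallow, with a median of 2920 UMIs per cell. The members' levels split into a neutrophil set, a macrophage set and genes spread over both, as given next. These are descriptions, with no test between clusters.

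**Figure D1:**
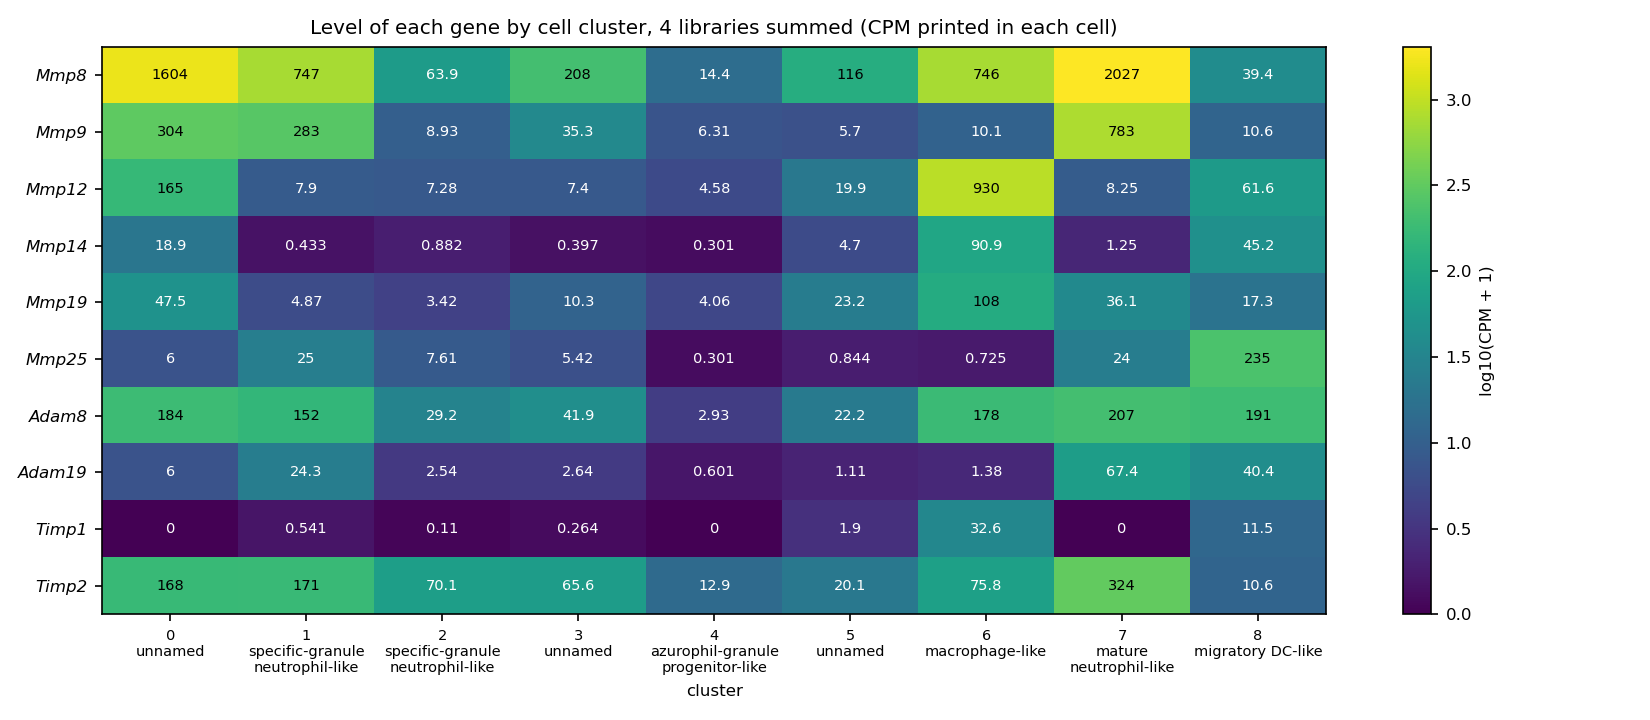
Level of each gene (CPM, printed in each square and coloured on a log10(CPM + 1) scale) in the 9 cell clusters (horizontal axis), with the 4 libraries summed. Mmp9, Adam19 and Timp2 were highest in cluster 7, Mmp12, Mmp14, Mmp19 and Timp1 in cluster 6, and Mmp25 in cluster 8.

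Mmp8, the collagenase of neutrophil granules, was highest in the mature neutrophil-like cluster (2027 CPM, 1992 to 2062). Its level was 14.4 CPM in the progenitor-like cluster, 63.9 in cluster 2 and 747 in cluster 1. Along these neutrophil clusters it was thus lowest where azurophil-granule markers led and highest where mature markers led. Mmp8 was not limited to neutrophil clusters. It reached 1604 CPM in cluster 0 and 746 CPM in the macrophage-like cluster, a level that overlapped that of cluster 1 within counting error. The macrophage-like cluster held 37.5% of all Mmp8 UMIs, more than the 22.6% of the mature neutrophil-like cluster. These clusters held 28.5% and 6.32% of the UMIs of all genes. Much of the Mmp8 in the macrophage-like cluster lay in sub-clusters that did not meet the macrophage naming rule, as given below. With each cell thinned to 2000 UMIs, an Mmp8 UMI was seen in 55.2% of macrophage-like cells (80.2% unthinned, median 14626 UMIs) and in 2.33% of progenitor-like cells (13.3% unthinned, median 23029 UMIs). Free RNA from broken cells can place a UMI in any droplet, and the progenitor-like value is the level seen where the gene is least found. Those cells had the highest median depth, so the value is not a background level for shallower clusters.

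Mmp9, the gelatinase of later neutrophil granules, was more restricted. The mature neutrophil-like cluster had 783 CPM, followed by cluster 0 (304 CPM) and cluster 1 (283 CPM), 2 levels that overlapped within counting error. All other clusters had 35.3 CPM or less, the macrophage-like one 10.1 CPM. At 2000 UMIs per cell, 72.7% of mature neutrophil-like cells and 1.89% of macrophage-like cells had an Mmp9 UMI. Adam19, an ADAM also called meltrin beta, was highest in the mature neutrophil-like cluster too (67.4 CPM), followed by the migratory dendritic cell-like cluster (40.4 CPM) and cluster 1 (24.3 CPM). Timp2, which inhibits MMPs and also takes part in the activation of pro-MMP2 by Mmp14, had its highest level there as well (324 CPM), ahead of cluster 1 (171 CPM) and cluster 0 (168 CPM). Timp2 was not limited to neutrophil clusters. The macrophage-like cluster had 75.8 CPM and held 25.1% of Timp2 UMIs, against 23.7% in the mature neutrophil-like cluster. Of the UMIs of all genes, these clusters held 28.5% and 6.32%. For Mmp9, Adam19 and Timp2 the mature neutrophil-like cluster was the highest in each of the 4 libraries, and for Mmp8 in 3 of 4.

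Mmp12, the elastase of macrophages, had 930 CPM in the macrophage-like cluster (919 to 942), which held 93.3% of its UMIs. The next levels were 165 CPM in cluster 0 and 61.6 CPM in cluster 8, and the neutrophil-like clusters had 4.58 to 8.25 CPM. Mmp14, a membrane MMP that cuts collagen and activates pro-MMP2, stood at 90.9 CPM in the macrophage-like cluster, which held 89.8% of its UMIs, and at 1.25 CPM or less in the neutrophil-like clusters. Timp1, an inhibitor that binds pro-MMP9 among others, was the rarest transcript of this set: 32.6 CPM in the macrophage-like cluster, which held 94.4% of its UMIs. No Timp1 UMI was found in the mature neutrophil-like cluster, which allows a level of up to 0.574 CPM. Mmp19 was highest in the macrophage-like cluster (108 CPM, 71.7% of its UMIs) but was also found in cluster 0 (47.5 CPM) and in mature neutrophil-like cells (36.1 CPM). The macrophage set and the neutrophil set thus met in Mmp8, Mmp19 and Timp2 but hardly in Mmp9, Mmp12, Mmp14 and Timp1.

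Mmp25, a GPI-anchored MMP known from neutrophils, was highest in the migratory dendritic cell-like cluster of 79 cells (235 CPM, 206 to 266). Clusters 1 and 7 followed with 24.99 and 23.98 CPM. The dendritic cells held 29.6% of Mmp25 UMIs with 0.849% of the cells, and their level was the highest in each of the 4 libraries (188 to 307 CPM). Adam8, an ADAM of leukocytes, was found at similar levels in neutrophil-like, macrophage-like and dendritic cell-like cells, with 178 to 207 CPM in clusters 0, 6, 7 and 8 and 2.93 CPM in the progenitor-like cluster. The 4 levels of Adam8 in those clusters overlapped their neighbours in order within counting error.

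The 1916 macrophage-like cells were clustered once more, giving 4 sub-clusters. Of these, 2 could be named. The larger was macrophage-like (628 cells, led by Pf4, Mrc1 and Arg1). The smaller was MHC class II dendritic cell-like (179 cells, led by Dscam and Plet1, with H2-Ab1 and H2-Aa among the leading genes). Its dendritic markers had a mean log2 ratio of 3.52, with 3 of 5 found in at least 10% of cells. Cd209a and Flt3 had only 9 and 64 UMIs in the series. Its macrophage markers stood at 3.16, above the 2.72 of the macrophage-like sub-cluster. The name dendritic cell-like therefore does not set these cells apart from macrophages. The other 2 were unnamed. The larger held 697 cells led by the stefin-like gene Csta3 and by F13a1, the smaller 412 cells led by Ptx3 and Diaph3. Macrophage markers had mean log2 ratios of -0.88 (Csta3) and 0.44 (Ptx3) there, and monocyte markers 0.89 and 0.69. The cluster name macrophage-like thus does not describe every cell in it. Mmp8 UMIs numbered 7112 (Csta3), 6674 (Ptx3), 7366 (macrophage-like) and 447 (dendritic cell-like). Mmp12 was 1727 CPM in the named macrophage-like sub-cluster and 1514 CPM in the dendritic cell-like one, against 270 CPM in the Csta3 sub-cluster and 837 CPM in the Ptx3 sub-cluster. Mmp14 ranged from 47.7 CPM (Csta3 sub-cluster) to 161 CPM (macrophage-like), and Timp1 from 12.1 CPM (Csta3 sub-cluster) to 65.8 CPM (dendritic cell-like). Mmp8 was instead lowest in the dendritic cell-like sub-cluster (203 CPM) and stood at 700 to 940 CPM in the other 3. Within the thinned macrophage-like cluster, 83.8% of the 99 cells with a Timp1 UMI also had an Mmp12 UMI, against 50.1% of the cells without Timp1. The same share was 75.6% for the 348 cells with an Mmp14 UMI and 46.5% for those without.

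As a further description of where each gene was found, the genes with the most similar levels over 34 sums of cells (each a cluster in a library) were listed among 9238 genes. The sums come from 4 libraries and share cell types, so no p is given. For Mmp8 these were Slfn1 (Pearson's r = 0.97), Fpr1 (0.96) and Ccl6 (0.95). Mmp9 was most like Slfn4 (0.94), with A530064D06Rik and Slc11a1 at 0.92. Mmp12 was most like Clec4a1 (0.94), Lmna and Trem2 (0.92 each), Mmp14 like Sdc4 (0.98), Myof and Fgf13 (0.96 each) and Mmp19 like Dab2 (0.96), Adgre1 and Tgfbi (0.95 each). Mmp25 was most like Ppp1r12a, Samsn1 (0.92 each) and Dennd5a (0.91), Adam8 like Iqgap1, Nabp1 and Mfsd6 (0.97 each), and Adam19 like Dennd3, Prr13 (0.90 each) and Gpr55 (0.88). Timp1 was most like Plxnb2, Asgr2 and Apbb2 (0.93 each) and Timp2 like Alox5ap (0.99), Itgam (0.96) and Ppp1r18 (0.95). Among the members themselves, the most similar pair was Mmp12 and Mmp14 (0.89) and the least similar Mmp9 and Timp1 (-0.41).

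The comparison between libraries asked how these genes differed with ISO in WT cells. Of the 10 members, 6 were called between WT + ISO and WT + PBS, against a background of 11.6% of 12988 genes. Because the members were chosen with earlier results of these data known, the count is no independent excess over that share. Mmp8 and Adam19 were higher with ISO (past 1.5-fold upward, 2.78% of all genes) and Mmp12, Mmp14, Mmp19 and Timp1 were lower (past 1.5-fold downward, 8.85% of all genes). The median log2 ratio of the 10 was -0.27, with -0.024 for all genes. The 4 members that were lower are those whose UMIs lay mostly in the macrophage-like cluster. In bulk sums such as these, fewer cells of a type and less RNA per cell cannot be told apart, and the share of cells in the macrophage-like cluster differed as well, 11% with ISO against 19.0% with PBS. The 6 macrophage markers summed to 61.1 CPM with ISO against 143 with PBS, and 6 of 6 were lower. The 5 markers of MHC class II dendritic cells summed to 306 against 921 CPM, 4 being lower and 1 higher, and the 5 eosinophil markers to 3.13 against 53.2 CPM, with 5 of 5 lower. Some of these markers were near the floor, with 9 UMIs over the 4 libraries for Cd209a, 9 for Ccr3 and 1 for Il5ra. Neutrophil classes differed beside the higher Mmp8 and Adam19. The 5 specific-granule markers summed to 21319 CPM with ISO against 14643 CPM with PBS, 5 of 5 being higher, and the 5 mature neutrophil markers to 748 against 943 CPM, 3 of 5 being lower. The 5 azurophil-granule markers summed to 5440 CPM with ISO against 4162 CPM with PBS, 5 of 5 being higher. The mature neutrophil-like cluster held 14.3% of cells with ISO and 10.5% with PBS, and the progenitor-like cluster 9.50% and 6.38%. Cluster 0 held 14.0% of cells with ISO against 25.7% with PBS, and cluster 2 held 12.6% against 6.02%. The part of these differences in the members' ratios was tested no further than by the next 2 settings. For those settings, the share of all genes past 1.5-fold was not counted. With the clusters held at the same weights in every library, 3 members were called, Timp1 (-1.61), Mmp14 (-0.76) and Mmp8 (1.07), while Mmp12 (-0.085), Mmp19 (-0.34) and Adam19 (0.40) were not. Without the macrophage-like cluster, a setting chosen after the data were seen, Mmp8 (0.76) and Mmp14 (-1.74) were called and Timp1 (-0.58) was not. The Timp1 and Mmp14 values rest on few UMIs, since the macrophage-like cluster held 94.4% and 89.8% of them. For Timp1, cluster 5, the next source, had 13 with PBS and 11 with ISO, with an interval that spanned 0 (-2.11 to 0.47). For Mmp14, cluster 0 had 48 with PBS and 15 with ISO, cluster 5 had 29 and 20 and cluster 8 had 17 and 4.

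**Figure D2:**
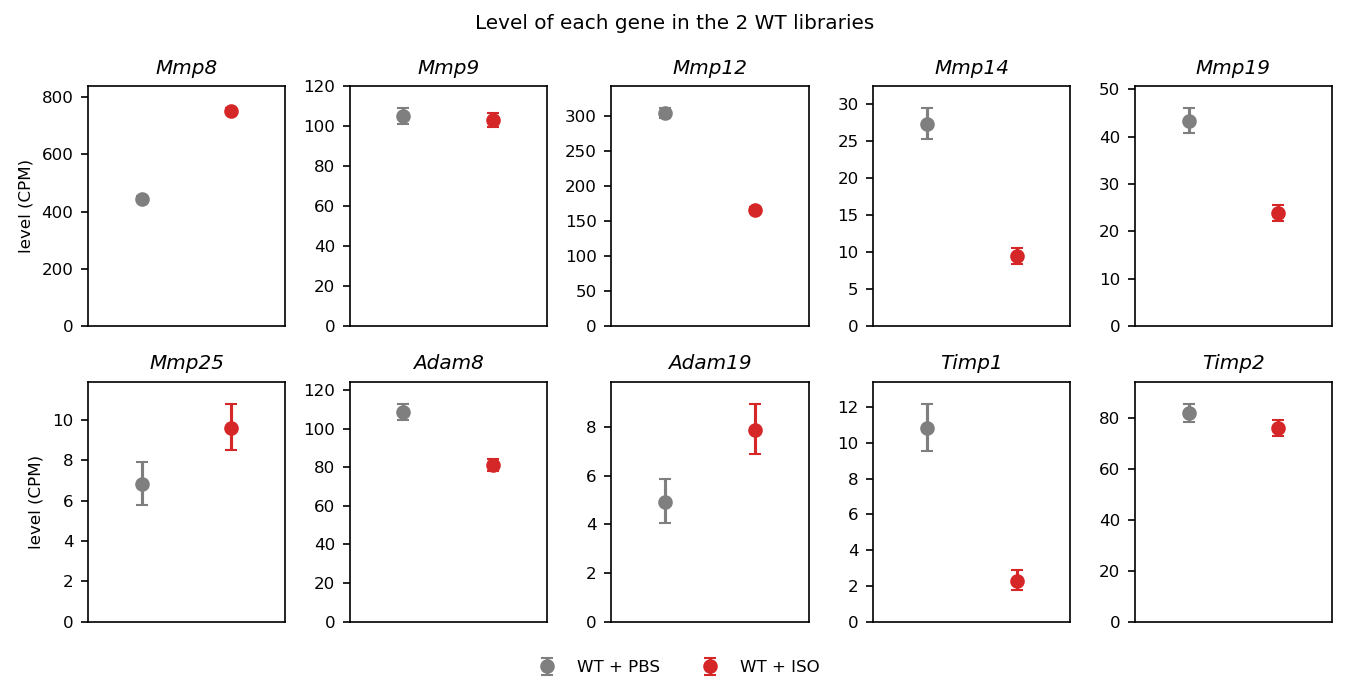
Level (CPM, vertical axes from 0) of each gene in WT + PBS and WT + ISO. Points are the sums over all cells of 1 library and bars are 95% counting intervals. Timp1, Mmp14, Mmp12 and Mmp19 stood lower with ISO and Mmp8, Adam19 and Mmp25 higher, each pair with intervals apart.

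Timp1 had the largest ratio. It stood at 10.8 CPM (9.56 to 12.2) with PBS and 2.28 CPM (1.77 to 2.89) with ISO, from 264 and 67 UMIs. The intervals did not meet, and the log2 ratio was -2.25 (-2.66 to -1.86), a 4.75-fold lower level. A few cells carried much of this transcript, since the 10 richest cells held 45.5% of its UMIs with PBS and 41.8% with ISO. For Mmp12 those shares were 15.8% and 27.9%.

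Mmp14 was 27.3 CPM with PBS and 9.39 CPM with ISO, from 667 and 276 UMIs, a log2 ratio of -1.54 (-1.75 to -1.34). Mmp12 was 305 and 166 CPM, from 7436 and 4874 UMIs, a log2 ratio of -0.88 (-0.93 to -0.83). Mmp19 stood at lower levels, 43.4 and 23.8 CPM, with a log2 ratio of -0.87 (-1.01 to -0.73). For these 4 genes of the macrophage set, the ISO library was the lower one by 1.82-fold (Mmp19) to 4.75-fold (Timp1).

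Mmp8, the most abundant member, went the other way, with 445 CPM (436 to 453) under PBS and 753 CPM (743 to 763) under ISO, from 10846 and 22147 UMIs. The log2 ratio was 0.76 (0.73 to 0.79), a 1.69-fold higher level. Adam19 had 4.92 and 7.89 CPM from 120 and 232 UMIs, a log2 ratio of 0.68 (0.36 to 1.01). Mmp25 had 6.81 and 9.63 CPM from 166 and 283 UMIs, and its log2 ratio of 0.50 (0.22 to 0.79) was not called.

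Adam8 stood at 109 CPM with PBS and 81.1 CPM with ISO, a log2 ratio of -0.42 (-0.50 to -0.34) that did not reach 1.5-fold. Timp2 (82.0 and 76.0 CPM) and Mmp9 (105 and 103 CPM) differed least, with log2 ratios of -0.11 (-0.20 to -0.022) and -0.029 (-0.11 to 0.048). Mmp8 and Mmp9, both known from neutrophil granules, thus had different ISO ratios, with intervals that do not meet.

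**Figure D3:**
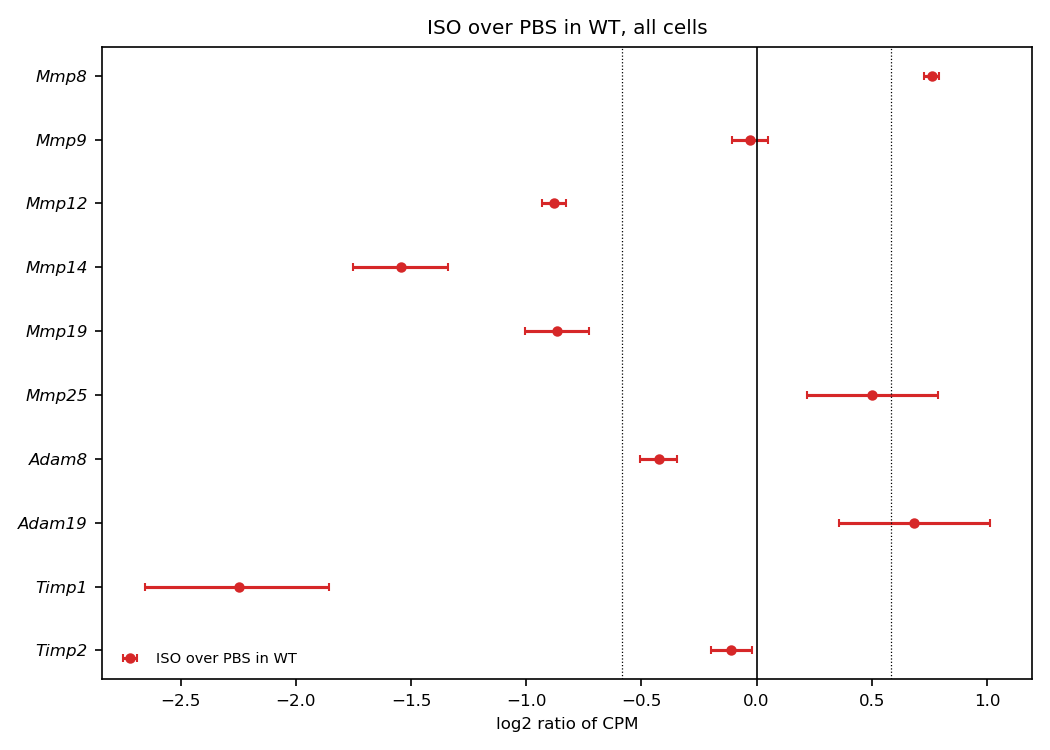
Log2 ratio of CPM (horizontal axis) of each gene in all cells for ISO over PBS in WT. Bars are 95% counting intervals and dotted lines mark 1.5-fold. Timp1 at -2.25 and Mmp14 at -1.54 stand farthest below 0, and Mmp8 at 0.76 and Adam19 at 0.68 farthest above.

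Ratios were next taken within clusters, where the number of cells per cluster no longer enters. In the macrophage-like cluster, 3 of the 8 members with enough UMIs were called for ISO in WT (background 11.9%). Timp1 remained lower, at 36.1 CPM with PBS and 10.9 CPM with ISO, a log2 ratio of -1.73 (-2.20 to -1.29), and so did Mmp14 (82.9 and 50.8 CPM, -0.71, -0.93 to -0.49). Mmp8 was higher (627 and 1413 CPM, 1.17, 1.12 to 1.23). Mmp19 (110 and 84.1 CPM, -0.39, -0.57 to -0.21) and Mmp12 (1016 and 941 CPM, -0.11, -0.17 to -0.055) did not reach 1.5-fold there. The ratio of Mmp12 seen over all cells was therefore not seen at that size within the cluster, whereas those of Timp1 and Mmp14 were past 1.5-fold in both. Marker levels within the cluster differed too, and such sums do not tell its mix of cells from the level per cell. The macrophage markers of the cluster summed to 385 CPM with PBS and 199 CPM with ISO, 5 of 6 being lower. Their part in the ratios was not tested.

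By sub-cluster, the lower Timp1 of WT + ISO was seen in each of the 3 with enough UMIs, with log2 ratios of -2.04 (Ptx3), -2.07 (Csta3) and -1.19 (macrophage-like). In that order, these ratios rest on 94 and 19, 48 and 8, and 88 and 23 Timp1 UMIs with PBS and ISO. Mmp14 was lower in the same 3 (-0.79, -0.91 and -0.62). In the dendritic cell-like sub-cluster, which rests on 41 cells with PBS and 13 with ISO, Mmp14 was instead higher (1.06, 0.21 to 1.86, from 42 and 20 UMIs). Mmp12 was mixed: -0.69 in the Csta3 sub-cluster, -0.31 in the Ptx3 sub-cluster, 0.18 in the macrophage-like and 0.81 in the dendritic cell-like one. Mmp8 was higher in all 4, by 0.97 to 2.80, the values of the dendritic cell-like sub-cluster again resting on 13 cells with ISO.

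In the mature neutrophil-like cluster, 4 of 8 members were called for ISO in WT, where the background was 18.3%. Mmp8 was 1703 CPM with PBS and 3253 CPM with ISO (log2 ratio 0.93, 0.86 to 1.01), Adam19 42.0 and 66.7 CPM (0.67, 0.17 to 1.19) and Mmp25 17.7 and 40.6 CPM (1.20, 0.46 to 2.002). The fourth was Mmp12 at 12.1 and 6.25 CPM, a level at which the interval spanned 0 (-2.22 to 0.29). Mmp9 (946 and 814 CPM, -0.22), Adam8 (255 and 198 CPM, -0.36) and Timp2 (386 and 305 CPM, -0.34) were lower by less than 1.5-fold, each with an interval below 0. Marker levels within this cluster differed as well. Its mature neutrophil markers summed to 4787 CPM with PBS and 3719 CPM with ISO, 5 of 5 being lower. Its specific-granule markers summed to 23973 and 29267 CPM, 4 of 5 being higher. Their part in the ratios was not tested.

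**Figure D4:**
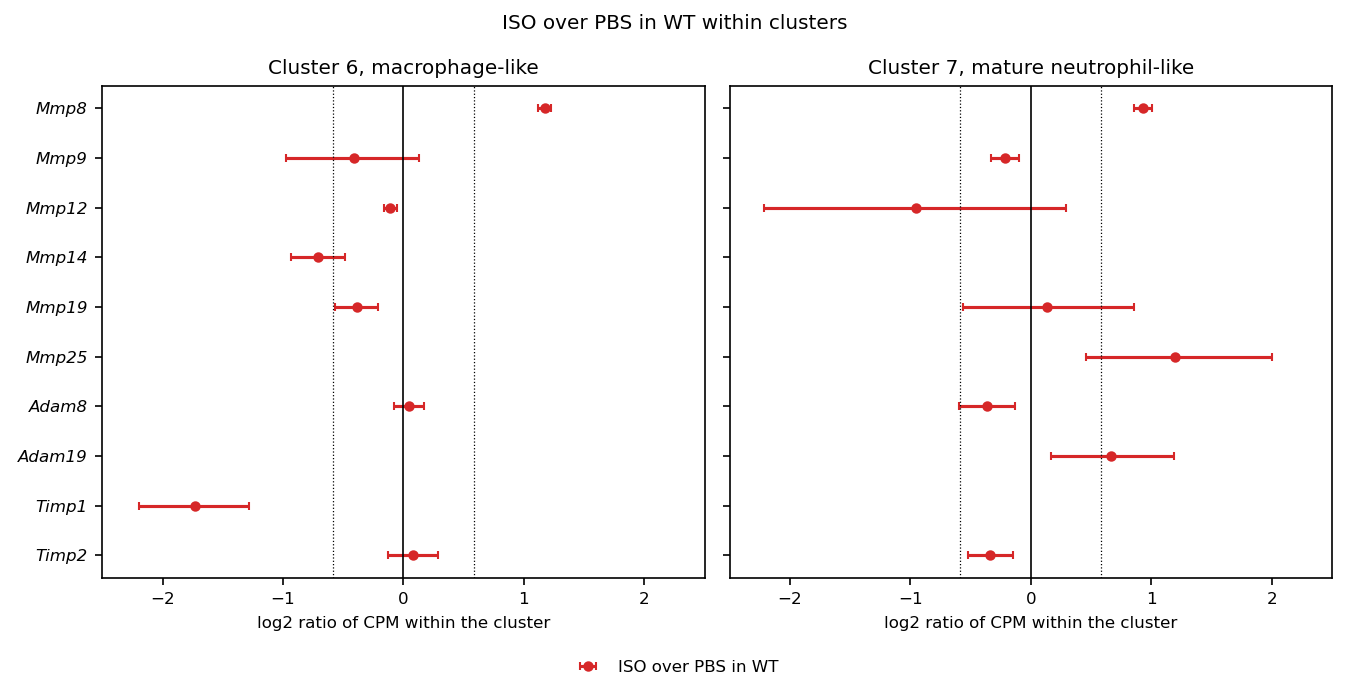
Log2 ratio of CPM for ISO over PBS in WT within the macrophage-like cluster (left) and the mature neutrophil-like cluster (right), for members with at least 20 UMIs in the pair of libraries. Bars are 95% counting intervals and dotted lines mark 1.5-fold. Mmp8 stands at 1.17 and 0.93, and Timp1 at -1.73 in the left panel.

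Mmp8 was the member whose ISO ratio had 1 sign in the most clusters. In WT it was above 0 in all 8 clusters with at least 20 UMIs, with a median log2 ratio of 1.09, and its interval left out 0 in 7 of them. The range ran from 0.40 in the progenitor-like cluster to 2.14 in cluster 2, where the levels were 27.3 CPM with PBS and 120 CPM with ISO. In cluster 1 they were 601 and 1031 CPM, and in clusters 3 and 5 they were 143 and 307 CPM and 60.2 and 190 CPM. Marker levels within cluster 5 differed between the 2 libraries. Its eosinophil markers summed to 254 CPM with PBS and 1.93 CPM with ISO, 5 of 5 being lower. Their part in the ratios of that cluster was not tested. Cluster 8 had too few Mmp8 UMIs for a ratio, 14 with PBS and 3 with ISO, and its level was lower with ISO (39.7 and 12.3 CPM). At 2000 UMIs per cell, an Mmp8 UMI was seen in 77.1% of macrophage-like cells with ISO and 50.8% with PBS (94.0% and 79.0% unthinned), and in 97.8% and 85.5% of mature neutrophil-like cells. Among progenitor-like cells the thinned shares were 2.82% with ISO and 1.43% with PBS, with overlapping intervals.

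**Figure D5:**
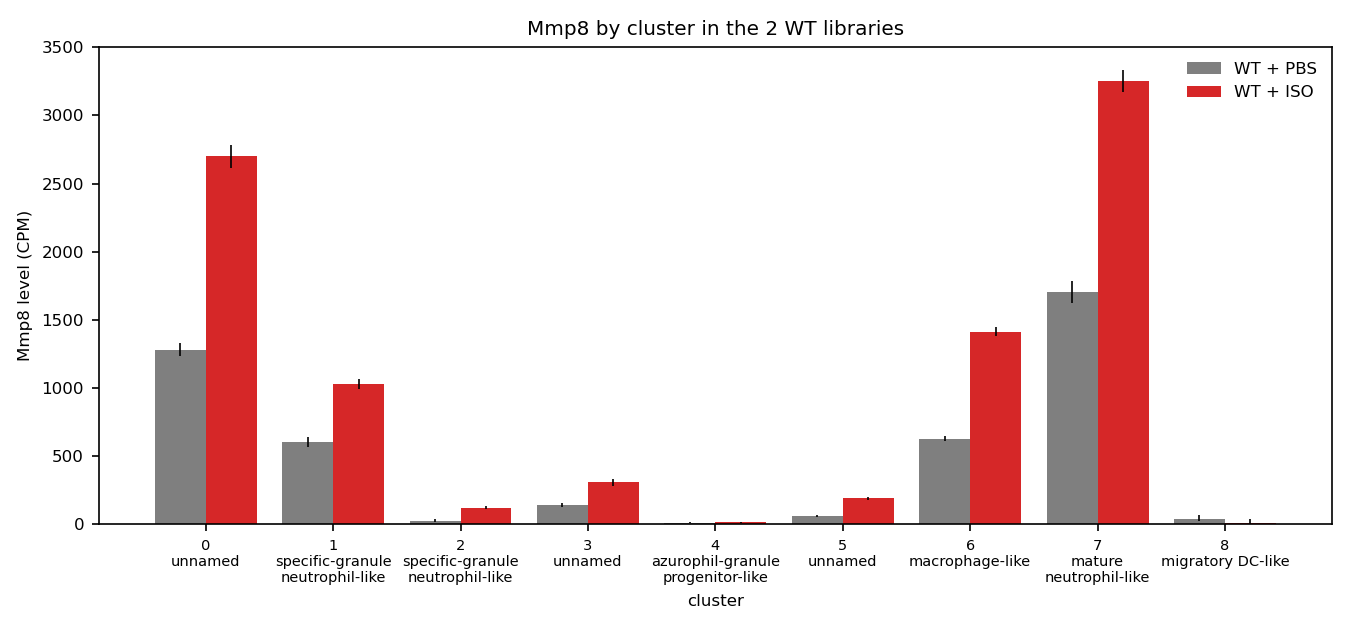
Mmp8 level (CPM, vertical axis) in each of the 9 clusters (horizontal axis) in WT + PBS and WT + ISO. Bars start at 0 and their lines are 95% counting intervals. In clusters 0, 6 and 7, WT + ISO reached 2699, 1413 and 3253 CPM, against 1281, 627 and 1703 CPM in WT + PBS.

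No other member had a ratio of 1 sign across as many clusters. Mmp14 in WT was below 0 in 4 of 4 clusters with enough UMIs, 3 of them with an interval below 0. Mmp12 was above 0 in 6 of 9 clusters in WT, among them cluster 5 (0.87, 0.45 to 1.30), while its main source, cluster 6, was below. Marker levels within both clusters differed between the libraries, as given above. Mmp25 was above 0 in 4 of 6, with intervals above 0 in cluster 1 (0.77) and cluster 7 (1.20), but not in the dendritic cell-like cluster where its level was highest (-0.11, -0.68 to 0.44). Adam8 and Timp2 each had intervals below 0 in 2 clusters in WT and above 0 in none.

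The rest of the family was counted from lists of related genes. Of 17 other MMPs, 16 were listed and 4 had at least 50 UMIs: Mmp2 (a gelatinase), Mmp13 (a collagenase), Mmp27 and Mmp28, with 103 to 164 UMIs each. All 4 passed 1.5-fold, as did 11.6% of all genes, Mmp2 (log2 ratio 1.32, 0.66 to 2.02) and Mmp27 (0.68, 0.0084 to 1.38) upward and Mmp13 (-1.35, -2.67 to -0.13) and Mmp28 (-1.23, -2.14 to -0.37) downward. Their levels, at most 2.65 CPM in either WT library, were far below those of most members. Few UMIs widen the spread of ratios, and 31.1% of genes passed 1.5-fold when those with as little as 1 UMI were counted too.

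Of 11 other ADAMs, 7 had enough UMIs and 1 was called, lower with ISO, a share near the 11.6% of all genes. It was Adam23, which lacks protease activity, at 16.8 CPM with PBS and 4.796 CPM with ISO (-1.81, -2.10 to -1.53). Its highest level was in the migratory dendritic cell-like cluster (672 CPM), whose share of WT cells was 1.13% with PBS and 0.618% with ISO. The widely expressed sheddases Adam10 (0.014, -0.089 to 0.12) and Adam17 (-0.47, -0.59 to -0.35) were not called.

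Of 20 ADAMTS genes, 3 had enough UMIs, and Adamts6 (3.53 and 1.73 CPM, -1.02, -1.55 to -0.51) was called, lower with ISO, against 11.6% of all genes called in either direction. Of the 4 other inhibitors only Reck, a membrane-anchored inhibitor of MMPs, had enough UMIs, and it was not called (3.89 and 5.75 CPM, 0.56, 0.19 to 0.94). Among 16 partners and activators, 14 had enough UMIs and 1 was called, a share below the 11.6% of all genes. It was Furin, a convertase that activates membrane MMPs and ADAMs, at 68.0 CPM with PBS and 43.5 CPM with ISO (-0.64, -0.75 to -0.54). Lcn2, whose protein binds MMP9, was higher with ISO by less than 1.5-fold (0.54).

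Of 10 proteins known to be cleaved by these proteases, 8 were measured with enough UMIs, and 3 were called, all lower with ISO, against 8.85% of all genes past 1.5-fold downward. Mertk, a receptor for dying cells that ADAM17 sheds, was 8.49 CPM with PBS and 1.26 CPM with ISO (-2.75, -3.30 to -2.24). Csf1r, the receptor of the macrophage growth factor CSF1, had a log2 ratio of -0.76 and Il1r2, a decoy receptor of interleukin-1, of -0.59. Mertk was highest in the macrophage-like cluster, and Il1r2 in the mature neutrophil-like one, and Csf1r and Il1r2 are also in the marker lists of monocytes and mature neutrophils. Transcript counts do not measure protease activity or the release of these proteins.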

How the data were processed

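Single-cell RNA-seq of 4 libraries was analysed, 1 per group, with groups taken from the sample titles. Comparisons with the 2 libraries that are not WT are not reported here. Unnormalized UMI counts, by cell and gene, were deposited by the authors from Cell Ranger (7.0.0 in the file header, 6.0.0 in the submitters' processing notes, which also name Seurat and mm10). Whether introns were counted is not given in the sources used here. The files also list 12 multiplexing tags, which were left out of all sums. In each library 1 tag led, a different one each time (CMO301 to CMO304), with 89.9% to 97.9% of the tag counts.

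A barcode entered the analysis with 200 genes or more and a mitochondrial share of 10% or less. UMIs were summed per library and scaled to CPM. Clusters were found with scanpy 1.11.5 (2000 variable genes, 30 principal components, 15 neighbours, Leiden resolution 0.4, seed 0) and named where at least 3 markers of a class were found in at least 10% of cells, their mean log2 ratio to all other cells was at least 1, and a marker was among the 10 leading genes. Scrublet (expected rate 6%) called 17 of 9303 cells (0.183%), too few to serve as a filter, so doublets may remain. Ratios carry exact conditional binomial intervals and shares Clopper-Pearson intervals. Named genes are the 10 members, genes of the related lists past 1.5-fold in WT (at most 6 per list, with Adam10, Adam17, Lcn2 and Reck added after their values were seen), and the 3 most similar genes per member by Pearson's r of log2(CPM + 1) over sums of at least 20 cells, among genes with at least 500 UMIs. The members and lists were chosen with earlier results of these data known. Positions and promoters come from RefSeq on GRCm38.p6. Promoters of 8 of 10 members were matched.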

Additional observations from a re-analysis of the deposited data

How the results depend on the processing

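No paired analysis was possible because a single library stands for each group, and no result comes from a test. For ISO over PBS in WT, the scaling and cell-filter alternatives (no filter, 1000 genes or more with 5% mitochondrial UMIs or less, called doublets left out, 20 most abundant genes out of the totals, median-of-ratios size factors, equal weight per cell) gave 6 or 7 called members and medians of -0.28 to -0.22. With clusters held at fixed weights, the median log2 ratio was -0.091 and 3 members were called. Past 2-fold, 2 members were called. For none of these alternatives was the share of all genes past the fold counted, so the counts have no background beside them.

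Of 2 alternatives chosen after seeing the data, leaving out the 10 cells richest in each member gave 7 called members, and leaving out the macrophage-like cluster gave 2. These counts have no share of all genes beside them either. Over all 9 settings, the ratio ranged from -2.29 to -0.58 for Timp1, -1.74 to -0.76 for Mmp14, -1.10 to -0.085 for Mmp12, -0.92 to -0.34 for Mmp19, 0.40 to 0.83 for Adam19 and 0.76 to 1.07 for Mmp8. The -0.58 of Timp1 and the -1.74 of Mmp14 come from the setting without the macrophage-like cluster, where few UMIs of either gene are left. With at least 1 UMI in place of 50, the share of genes past 1.5-fold was 31.1%. Of 30 shares of a member's UMIs in clusters with neutrophil markers, 14 moved with the clustering, and all 40 shares of cells with a UMI moved on thinning. Depth limits Timp1, Adam19 and Mmp25 most, with 67 to 283 UMIs per WT library.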
